A study of Homo sapiens with 3 samples.

Results

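Binding of RUNX2 and CBFB was examined at 10 genes of FGF, hedgehog and parathyroid hormone (PTH) signalling, out of 20163 protein-coding genes. The genes were the FGF ligands FGF2 and FGF18, the FGF receptors FGFR1, FGFR2 and FGFR3, the hedgehog ligand IHH, its receptor PTCH1, the hedgehog transcription factor GLI2, the PTH-related ligand PTHLH and the receptor PTH1R. They were chosen by name, and each peak that came within 25 kb of a gene body was counted for that gene. In all, 15 of 9941 RUNX2 peaks and 41 of 27246 CBFB peaks met this rule, and no peak was counted for more than 1 of the 10 genes.

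ChIP-seq, the sequencing of DNA recovered by chromatin immunoprecipitation, was performed in untreated SAOS2 cells, a human osteosarcoma (OS) cell line that is p53 null. There were 3 samples of 1 library each, comprising a RUNX2 ChIP with a custom made antibody, a CBFB ChIP with an antibody from Bethyl and input DNA. The input was not analysed here. With 1 library for each antibody there was no replicate, so the results are positions, ranks and counts without p-values. The lists hold no read counts and no expression values, so the depth is unknown, and whether a gene was transcribed cannot be read from them.

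RUNX2 is the transcription factor that osteoblast differentiation depends on, and CBFB is the subunit that RUNX proteins share and that strengthens their hold on DNA. In the growth plate of developing bone, IHH from maturing chondrocytes binds PTCH1 and so lets GLI transcription factors act, while PTHLH binds PTH1R and delays maturation, and the ligands of the pair form a feedback loop. FGF ligands act through tyrosine kinase receptors on the same cells, where FGFR3 restrains chondrocyte growth, and FGFR1 and FGFR2 are also used by osteoblasts.

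The stretches of the peaks that carried the RUNX core, the short sequence that RUNX proteins are known to recognise, are shown first. The core was searched for as TGTGGT on either strand (ACCACA on the other). For each gene with a RUNX2 peak, the stretch of 30 bases around the core nearest to the midpoint of its highest-scoring RUNX2 peak is given, in GRCh37 (hg19), on the strand on which the core reads TGTGGT and with the core in capitals.
FGFR2, score 74.68 (chr10:123223154-123223183, minus strand): agatcttgctggTGTGGTatgtggagaggc
PTH1R, score 112.59 (chr3:46938022-46938051, plus strand): catctgggaggcTGTGGTcaccctgtggct
GLI2, score 232.63 (chr2:121644685-121644714, plus strand): ccgatcaatgccTGTGGTccttgaaagcag
PTCH1, score 205.46 (chr9:98225094-98225123, minus strand): agcgcagctgtgTGTGGTgtgctggcgggc
These cores lay 4 bp from the peak midpoint at FGFR2, 91 bp at PTCH1, 107 bp at PTH1R and 443 bp at GLI2. The core was thus close to the midpoint at FGFR2 and far from it in the strongest GLI2 peak, which is 1525 bp wide. The midpoint is the middle of the called interval, and the point of highest signal within a peak was not used.

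The genes with a CBFB peak and no RUNX2 peak are shown in the same way, to allow the sequences of both sets to be compared. The stretch comes from the highest-scoring CBFB peak of each gene.
FGF2, score 431.24 (chr4:123748609-123748638, plus strand): cctagcgctccgTGTGGTttctggccgcgc
FGFR3, score 302.80 (chr4:1773942-1773971, plus strand): tcagtgggtgttTGTGGTgcctggcagcgg
IHH, score 237.68 (chr2:219944290-219944319, minus strand): tgattcattgccTGTGGTttccagtgaaag
PTHLH, score 96.95 (chr12:28122641-28122670, minus strand): tctttctggctgTGTGGTttggagaaagca
The core was 49 bp from the midpoint of the PTHLH peak and 60 bp from that of the IHH peak. It was 197 bp away at FGF2 and 388 bp away at FGFR3. In the stretches of FGF2, IHH and PTHLH the core was followed by a further T, which gives the longer form TGTGGTT. In the FGFR3 stretch and in those from RUNX2 peaks the core was followed by another base. Each stretch shows a single core of its peak, so this does not set the genes apart. The longer form was found anywhere in the peak in 11 of 15 RUNX2 peaks (73.3%) and 25 of 41 CBFB peaks (61%). The highest-scoring RUNX2 peaks of PTCH1 and PTH1R held 2 copies each, that of FGFR2 held 1 and that of GLI2 held 0.

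RUNX2 peaks were found at 4 of the 10 genes: FGFR2 and PTH1R with 3 peaks each, GLI2 with 6 and PTCH1 with 3. CBFB peaks were found at 8 genes, namely FGFR2 with 6, FGFR3 with 2, FGF2 with 1, PTH1R with 5, PTHLH with 1, IHH with 2, GLI2 with 17 and PTCH1 with 7. FGFR1 and FGF18 had neither. Of all protein-coding genes, 36.0% had a RUNX2 peak within 25 kb and 62.2% had a CBFB peak, so the counts of 4 and 8 out of 10 are near the background and are no result about these genes.

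By pathway, RUNX2 peaks lay at 1 of 5 FGF genes, 2 of 3 hedgehog genes and 1 of 2 PTH genes. CBFB peaks lay at 3 of 5 FGF genes, 3 of 3 hedgehog genes and 2 of 2 PTH genes. Long genes offer more room for a peak: 44.5% of the 6794 protein-coding genes over 50 kb had a RUNX2 peak, against 31.7% of the 13369 genes up to 50 kb, and for CBFB the shares were 71.3% and 57.5%. Of the 5 members over 50 kb (FGFR1, FGFR2, FGF2, GLI2 and PTCH1) 3 had a RUNX2 peak and 4 a CBFB peak. Of the 5 shorter members, 1 had a RUNX2 peak, which was PTH1R, and 4 had a CBFB peak.

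**Figure D1:**
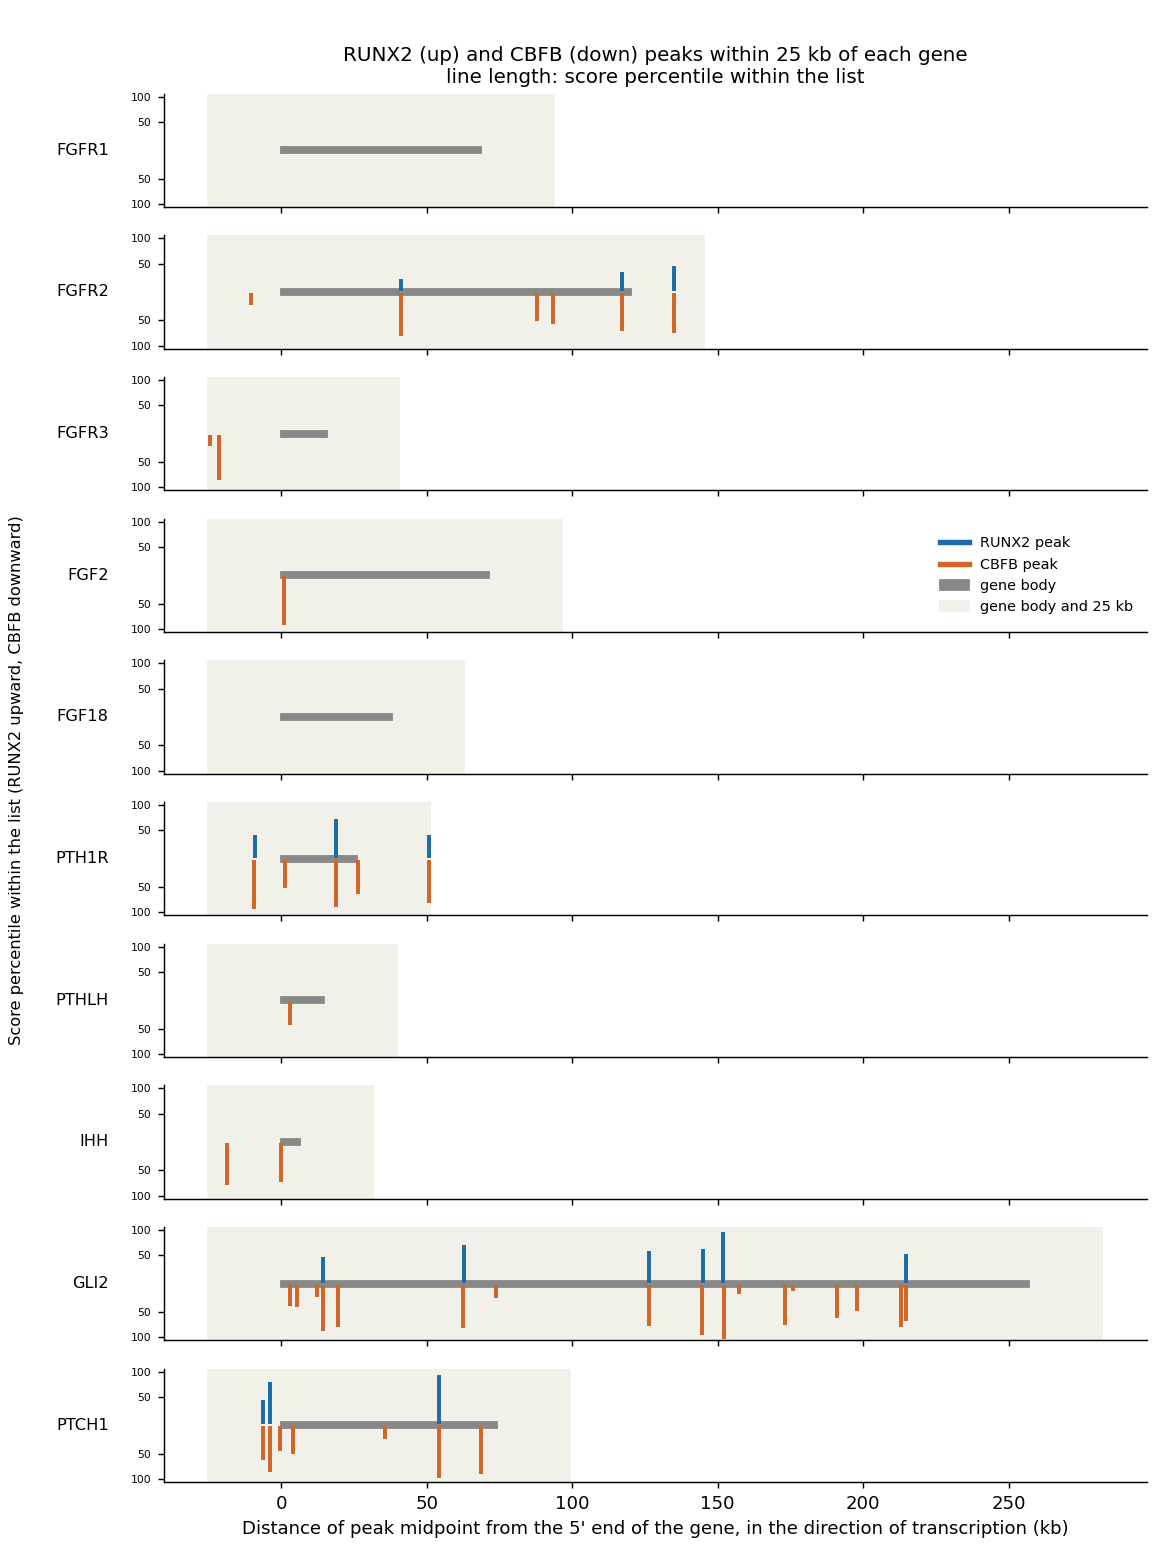
Each panel is 1 gene, with the distance from its 5′ end in the direction of transcription on the horizontal axis (kb) and the score percentile of each peak within its own list on the vertical axis, RUNX2 upward and CBFB downward. The grey bar is the gene body and the pale area adds 25 kb at each end. GLI2 carried 6 RUNX2 and 17 CBFB peaks along its 257 kb, and the panels of FGFR1 and FGF18 are empty.

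The overlap of the lists was examined next. All 15 RUNX2 peaks shared 1 bp or more with a CBFB peak (100%, exact 95% interval 78.2 to 100), and the share over the whole RUNX2 list was 94.2%. Conversely, 15 of 41 CBFB peaks had an overlapping RUNX2 peak (36.6%, exact 95% interval 22.1 to 53.1), and the share over the whole CBFB list was 33.8%. Both shares at these genes were thus near those of their lists. These intervals, and the others given, cover counting error only. In 14 of 15 pairs the RUNX2 peak lay wholly inside the CBFB peak, and the midpoints were 3 to 308 bp apart with a median of 81 bp. The 26 CBFB peaks without a RUNX2 peak included each CBFB peak of FGF2, FGFR3, IHH and PTHLH.

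A score was given for each peak by the authors' peak caller. It depends on the depth of the library, so it was read only as a percentile, the share of peaks of the same list that scored at or below it. The 15 RUNX2 peaks had a median percentile of 49.5 (range 16.4 to 92.6), which is the middle of the list, and 2 of them were above the percentile of 80. The 41 CBFB peaks had a median percentile of 67 (range 3.77 to 98.6), and 10 were above 80. The 15 CBFB peaks that overlapped a RUNX2 peak had a median percentile of 77.3, and the 26 others had one of 47.3. The same ordering held over the whole CBFB list, where the medians were 80 and 35.9.

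**Figure D2:**
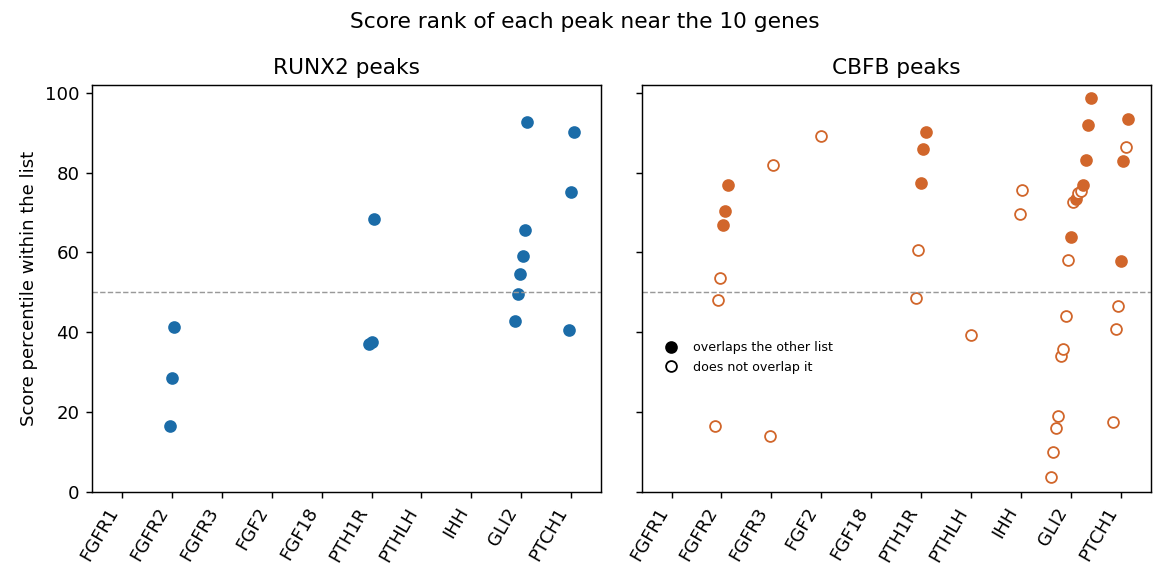
Each point is 1 peak, with the gene on the horizontal axis and the score percentile within the RUNX2 list (left) or CBFB list (right) on the vertical axis, and filled points are peaks that overlap the other list. The 3 RUNX2 peaks of FGFR2 sit below the dashed line at 50, and the highest points are at GLI2 and PTCH1.

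Among the ligands, FGF2, a mitogen of osteoblast precursors, had a single CBFB peak and no RUNX2 peak. The gene lies at chr4:123747837-123819391 on the plus strand and is 71.6 kb long. Its CBFB peak, chr4:123748270-123749372, had a score of 431.24 and a percentile of 89.2, and its midpoint was in intron 1, 835 bp after the start of the canonical transcript. It was the highest-scoring CBFB peak at these genes that did not overlap a RUNX2 peak. The RUNX2 peak nearest to FGF2 was 247 kb away, closest to a start of IL21, and 23.3% of protein-coding genes were at least as far from a RUNX2 peak.

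IHH, at chr2:219919146-219925643 on the minus strand, is the shortest of the genes with 6.50 kb. A CBFB peak with a score of 197.29 (percentile 69.6) covered its start, chr2:219924826-219926679, with the midpoint 109 bp before the annotated 5′ end. The other CBFB peak, chr2:219943629-219945101, scored 237.68 (percentile 75.6), lay 17985 bp upstream of the gene body inside NHEJ1, and was nearer to an annotated start of NHEJ1 (4490 bp) than to that of IHH (18722 bp). No RUNX2 peak lay within 25 kb. The nearest was 63.1 kb away at 364 bp from a start of NHEJ1, a DNA repair gene, and had a percentile of 96.5. IHH was therefore without a RUNX2 peak under the distance rule while a high-ranking RUNX2 peak was present at its neighbour.

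PTHLH, at chr12:28111017-28125666 on the minus strand, is 14.7 kb long. It had 1 CBFB peak, chr12:28121934-28123281, in intron 3 and 113 bp from an annotated start of PTHLH, with a score of 96.95 and a percentile of 39.2. No RUNX2 peak came within 25 kb. The nearest RUNX2 peak was 53.6 kb away, had a percentile of 89.3, and no other protein-coding start was closer to it than that of PTHLH, at 54043 bp. PTHLH thus had a CBFB peak below the middle of its list, at an alternative start and not at the canonical one, and a high-ranking RUNX2 peak lay outside the 25 kb limit.

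FGF18, a ligand of chondrocytes and osteoblasts, lies at chr5:170846651-170884630 on the plus strand and had no peak of either list. The nearest CBFB peak was 30.5 kb away, 37 bp from a start of NPM1, with a percentile of 18. The nearest RUNX2 peak was 51.8 kb away. At least as large a gap was found for 53.4% of protein-coding genes in the RUNX2 list and 35.4% in the CBFB list, so the distances of FGF18 were common ones. The gene body and its surroundings without a peak allow up to 4.19 peaks per 100 kb by counting error.

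Among the receptors, FGFR2, at chr10:123237846-123357972 on the minus strand, had 3 RUNX2 peaks, and all scored below the middle of the list. The highest, chr10:123222889-123223441, scored 74.68 (percentile 41.2) and lay 14404 bp beyond the 3′ end of the gene. The next, chr10:123240570-123241364, scored 64.73 (percentile 28.6) in intron 17 of the canonical transcript, 968 bp from another annotated start of FGFR2. The last, chr10:123316305-123317007, scored 57.51 (percentile 16.4) in intron 4. Their CBFB partners were above the middle of the CBFB list, with percentiles of 70.4, 67 and 77. No other protein-coding gene came within 25 kb of FGFR2, and the protein-coding start nearest to each of its 3 RUNX2 and 6 CBFB peaks was that of FGFR2. The 3 CBFB peaks without a RUNX2 peak had percentiles of 53.5, 48 and 16.6.

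FGFR3, at chr4:1795020-1810599 on the plus strand, had CBFB peaks only, and both were far upstream. The stronger, chr4:1772611-1774528, scored 302.80 (percentile 82), 20491 bp before the gene body. The weaker, chr4:1770089-1770932, scored 61.97 (percentile 14.1) and was about as close to a start of TACC3 (24344 bp) as to that of FGFR3 (24510 bp). Both fell out when the limit was set at 5 kb. The RUNX2 peak nearest to FGFR3 was 90.4 kb away, and 42.9% of protein-coding genes had a gap at least as large.

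PTH1R, the receptor for PTH and PTHLH and a marker of the osteoblast lineage, was the only member up to 50 kb long with RUNX2 peaks. It lies at chr3:46919211-46945289 on the plus strand. The strongest RUNX2 peak, chr3:46937257-46938603, scored 112.59 (percentile 68.4) in intron 5, 3719 bp from an annotated start of PTH1R, and its CBFB partner had a percentile of 85.9. The 2 other RUNX2 peaks were in neighbouring genes. The peak chr3:46909569-46910569 (score 71.05, percentile 37) lay inside MYL3, a myosin light chain gene, and its CBFB partner had a percentile of 90.3. The peak chr3:46969720-46970475 (score 71.45, percentile 37.5) lay inside CCDC12, 24430 bp from PTH1R, with a CBFB partner at a percentile of 77.3. The nearest protein-coding start was that of PTH1R for 1 of its 3 RUNX2 peaks and 3 of its 5 CBFB peaks. The 2 CBFB peaks without a RUNX2 peak were in intron 1 (percentile 48.5) and across the 3′ end of the gene (percentile 60.7).

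PTCH1 encodes the hedgehog receptor and is itself switched on by hedgehog signalling. It lies at chr9:98205262-98279339 on the minus strand and is 74.1 kb long. The strongest RUNX2 peak, chr9:98224564-98225836, scored 205.46 and ranked 977 in the list (percentile 90.2). Its midpoint was in intron 15, 1029 bp from the start of a shorter PTCH1 transcript, and its CBFB partner ranked 1799 (percentile 93.4). The 2 other RUNX2 peaks formed a pair upstream of the gene. That at chr9:98282726-98283603 scored 128.63 (percentile 75.1) 3386 bp before the gene body, and that at chr9:98285067-98285888 scored 74.04 (percentile 40.5) 5727 bp before it. The canonical start lies inside the gene body, and the midpoints of the pair were 11.6 kb and 13.9 kb upstream of it. The CBFB partners of the pair had percentiles of 83 and 57.9. PTCH1 therefore carried RUNX2 peaks both upstream of the gene body and within it, and the nearest protein-coding start was that of PTCH1 for each.

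The 4 CBFB peaks of PTCH1 without a RUNX2 peak included a strong peak in intron 22, chr9:98209541-98211700, with a score of 374.14 and a percentile of 86.5. A peak in intron 5 had a percentile of 17.4. The remaining peaks flanked the 5′ end of the gene, with percentiles of 46.6 and 40.7. The latter had its midpoint 259 bp before the outermost start of PTCH1. From the canonical start, the midpoints were 3.63 kb and 8.05 kb upstream, in the order given. Both peaks at the 5′ end held the GLI motif GACCACCCA, the sequence that GLI proteins bind and through which PTCH1 is known to respond to hedgehog signals. Stretches of 29 bases are shown with this motif in capitals.
PTCH1, score 112.81 (chr9:98274786-98274814, minus strand): cctcagccctGACCACCCAagtcgagcag
PTCH1, score 99.75 (chr9:98279104-98279132, minus strand): tggcgcggcaGACCACCCAcgccgagggc
The motif was 375 bp and 480 bp from the midpoints of these peaks. It was found, on either strand and anywhere in the peak, in 2 of the 41 CBFB peaks at the 10 genes (4.88%, exact 95% interval 0.596 to 16.5) and in 1.29% of all CBFB peaks. It was found in 0 of the 15 RUNX2 peaks (exact upper limit 21.8%) and in 1.12% of all RUNX2 peaks. With 2 matches the share is imprecise, and a match describes the sequence and does not show that GLI proteins were bound there.

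GLI2, the transcription factor that carries the activating hedgehog signal to the nucleus, held the most peaks. The gene lies at chr2:121493199-121750229 on the plus strand, is 257 kb long, and has no other protein-coding gene within 25 kb. It held 40% of the 15 RUNX2 peaks and 41.5% of the 41 CBFB peaks. Among the 1503 protein-coding genes over 200 kb, the median was 1 RUNX2 and 3 CBFB peaks, and 95.6% had no more RUNX2 peaks than GLI2 and 96.9% no more CBFB peaks. GLI2 thus carried many peaks even for a gene of its length.

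The 6 RUNX2 peaks of GLI2 were all in introns 1 to 3. The strongest, chr2:121644381-121645905, scored 232.63, ranked 733 (percentile 92.6) and lay in intron 2, 152 kb after the canonical start. Its CBFB partner scored 1187.70 and ranked 393 (percentile 98.6), the highest percentile in either list at these genes. The other RUNX2 peaks in intron 2 were chr2:121555245-121556599 (score 106.81, percentile 65.6), chr2:121619019-121619897 (score 89.69, percentile 54.6) and chr2:121637983-121638487 (score 95.51, percentile 59). The first of these was 1001 bp from another annotated start of GLI2. The peak in intron 1, chr2:121507106-121508141, scored 76.11 (percentile 42.7) 14179 bp after the canonical start, and the peak in intron 3, chr2:121707649-121708377, scored 83.46 (percentile 49.5). The RUNX2 peaks of GLI2 were thus spread along its introns, and none lay at the canonical start. The 11 CBFB peaks without a RUNX2 peak had percentiles from 3.77 to 75.3.

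Sequence around the midpoint of the strongest GLI2 peak is shown because the RUNX core was absent from it. The window of 201 bases holds 1 copy of the AP-1 motif, TGAGTCA (complement TGACTCA), which is bound by FOS and JUN proteins and is given in capitals.
GLI2, score 232.63 (chr2:121645043-121645243, plus strand): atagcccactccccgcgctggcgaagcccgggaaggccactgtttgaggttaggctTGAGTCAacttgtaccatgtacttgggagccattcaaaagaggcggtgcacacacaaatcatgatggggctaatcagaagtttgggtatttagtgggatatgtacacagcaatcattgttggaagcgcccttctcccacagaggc
The AP-1 motif was 41 bp from the midpoint of the RUNX2 peak. Within 100 bp of the midpoint, the motif was found in 1 of 15 RUNX2 peaks (6.67%) and 1 of 41 CBFB peaks (2.44%). Over the whole lists the shares were 9.72% and 8.52%. The CBFB peak was another GLI2 peak, with a score of 145.66 and no overlapping RUNX2 peak. In the CBFB partner of the strongest GLI2 peak the motif lay 122 bp from the midpoint. Anywhere in the peak, the same RUNX2 peak remained the only 1 of 15 with the motif (6.67%), against 27.8% of all RUNX2 peaks. For CBFB, 9 of 41 peaks held it anywhere (22%), against 30.2% of the list.

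FGFR1, at chr8:38257733-38326352 on the minus strand, is 68.6 kb long and had no peak within 25 kb. The nearest CBFB peak was 191 kb away and the nearest RUNX2 peak 202 kb away, both closer to TACC1 than to any other protein-coding start. Only 11.6% of protein-coding genes were at least as far from a CBFB peak, and 27.2% were at least as far from a RUNX2 peak. The median gaps over all protein-coding genes were 6.73 kb and 62.9 kb. FGFR1 thus stood in the emptiest surroundings of the 10 genes with regard to CBFB, and its gene body with 25 kb at each end allowed up to 3.11 peaks per 100 kb by counting error.

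Peaks were next counted per 100 kb of gene body plus 25 kb at each end, so that genes of unequal length could be set side by side. For RUNX2 the order was PTH1R with 3.94, PTCH1 with 2.42, GLI2 with 1.95 and FGFR2 with 1.76 peaks per 100 kb. For CBFB it was PTH1R with 6.57, PTCH1 with 5.64, GLI2 with 5.54, IHH with 3.54, FGFR2 with 3.53, FGFR3 with 3.05, PTHLH with 1.55 and FGF2 with 0.823. PTH1R led with every peak in its window counted. By nearest protein-coding start, only 1 of its 3 RUNX2 and 3 of its 5 CBFB peaks belonged to it. The exact Poisson 95% intervals of all neighbours in these orders overlapped. The RUNX2 interval ran from 0.813 to 11.5 for PTH1R and from 0.364 to 5.15 for FGFR2, so even the ends of that order were not told apart. The mean over the windows of all protein-coding genes was 0.519 for RUNX2 and 1.4 for CBFB. The lower limit for GLI2, 3.23 CBFB peaks per 100 kb, was above that mean, as were those of PTCH1 (2.27) and PTH1R (2.13), but not those of the other genes. For RUNX2, the lower limits of PTH1R (0.813) and GLI2 (0.717) were above the mean, and those of PTCH1 (0.499) and FGFR2 (0.364) were below it. These limits cover counting error only and leave out the spread between genes, so a limit above the mean does not set a gene apart. The limits of PTH1R also count its peaks in neighbouring genes. Of all protein-coding genes, 94.2% had no higher CBFB density than GLI2, 94.5% than PTCH1 and 96.5% than PTH1R. No test was run.

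The place of the peaks was described without regard to score. Of the 15 RUNX2 peaks, 10 had their midpoint in an intron of the gene, 3 were upstream and 2 downstream. Of the 41 CBFB peaks, 28 were in introns, 1 in a non-coding exon, 9 upstream and 3 downstream. None had its midpoint in a coding exon or a UTR of these genes. Within 5 kb of any annotated start, alternative starts included, lay 7 of 15 RUNX2 and 21 of 41 CBFB peaks. The protein-coding start nearest to the peak was that of the gene itself for 13 of 15 RUNX2 peaks and 37 of 41 CBFB peaks, and the exceptions were at PTH1R, IHH and FGFR3. The same shares were not counted over the whole lists. These places are therefore a description and cannot be called particular to these genes.

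The RUNX core was then counted over all peaks. It lay within 100 bp of the midpoint in 10 of 15 RUNX2 peaks (66.7%, exact 95% interval 38.4 to 88.2), which comprised 3 of 3 at FGFR2, 3 of 3 at PTCH1, 1 of 3 at PTH1R and 3 of 6 at GLI2. In the whole RUNX2 list the share was 43.2% of 9928 peaks, which is inside that interval. In CBFB peaks the core was found in 17 of 41 (41.5%, 26.3 to 57.9), and in 41.6% of the 27204 CBFB peaks of the list. Of the CBFB peaks that overlapped a RUNX2 peak 11 of 15 held it, and of the others 6 of 26. The same split was not counted over the whole CBFB list, so it is no result about these genes. In equally wide windows centred 2 kb up- and downstream of the midpoint and free of any peak, the core was found in 5 of 26 at the RUNX2 peaks (19.2%, 6.55 to 39.4) and 8 of 73 at the CBFB peaks (11%, 4.85 to 20.5), and over all peaks of the lists in 13.6% and 13.8%.

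Anywhere in the peak, 14 of 15 RUNX2 peaks held the core (93.3%), against 78.1% of all RUNX2 peaks. The exception was the GLI2 peak with a score of 106.81. The longer form TGTGGTT, which includes the core, was within 100 bp of the midpoint in 5 of 15 RUNX2 peaks (33.3%, 11.8 to 61.6). In CBFB peaks it was there in 14 of 41 (34.1%, 20.1 to 50.6). The shares of the lists, 23.4% and 23.2%, are inside these intervals. Among the RUNX2 peaks, the cores nearest to a midpoint were those of the upstream PTCH1 peak with a score of 74.04 (2 bp), the downstream FGFR2 peak (4 bp) and the PTH1R peak in MYL3 (6 bp). The core is shared by all RUNX proteins and so cannot show which of them was bound.

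**Figure D3:**
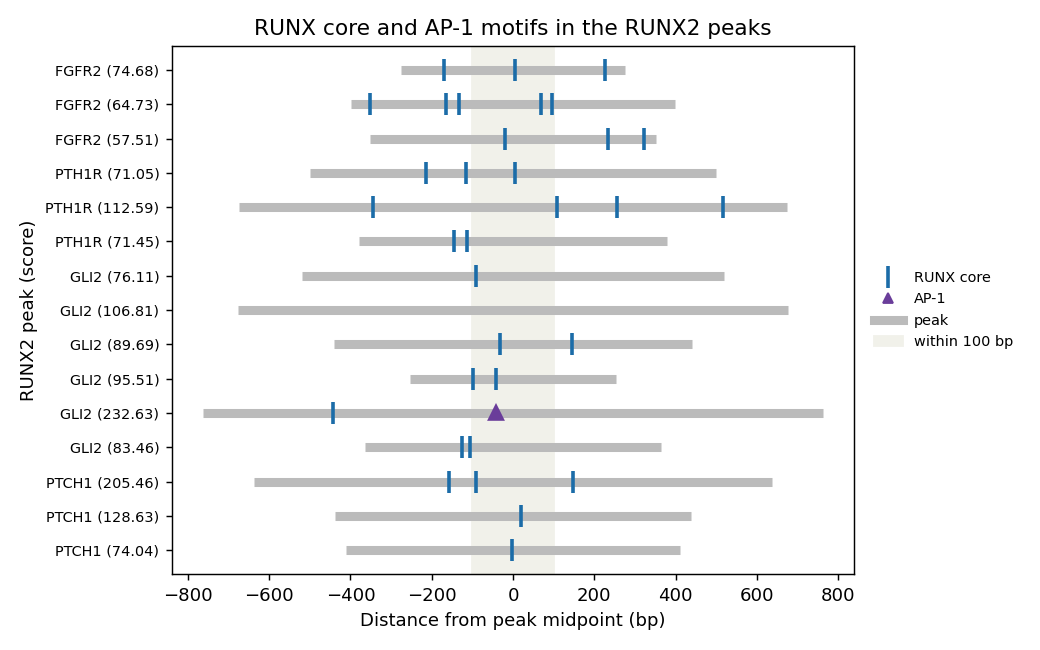
Each row is 1 RUNX2 peak, named by its gene and score, drawn to scale around its midpoint (bp), with vertical marks for the RUNX core, a triangle for the AP-1 motif and a pale band for the 100 bp to either side. The band holds a core in 10 of 15 rows, and the row of the strongest GLI2 peak has its core 443 bp from the midpoint and the AP-1 motif 41 bp from it.

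The other genes of these pathways were counted from a wider list of 49 ligands, receptors, co-receptors and signal transducers. RUNX2 peaks were found at 14 (28.6%) and CBFB peaks at 25 (51%), 24 had neither, and no gene had a RUNX2 peak without a CBFB peak within 25 kb. Of 29 further FGF genes, 4 had a RUNX2 peak (13.8%) and 12 a CBFB peak (41.4%). Of 14 further hedgehog genes, 8 had a RUNX2 peak (57.1%) and 10 a CBFB peak (71.4%), and of 6 further PTH genes 2 and 3. The FGF genes were short, with a median of 11.5 kb against 65.4 kb for the hedgehog genes. Among genes over 50 kb, RUNX2 peaks were at 1 of 8 FGF and 6 of 8 hedgehog genes, and among shorter genes at 3 of 21 and 2 of 6. Over all protein-coding genes, the shares with a peak were 36.0% for RUNX2 and 62.2% for CBFB. For RUNX2 the share was 44.5% of genes over 50 kb and 31.7% of genes up to 50 kb. These counts are a description, and the difference between the pathways was not tested.

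**Figure D4:**
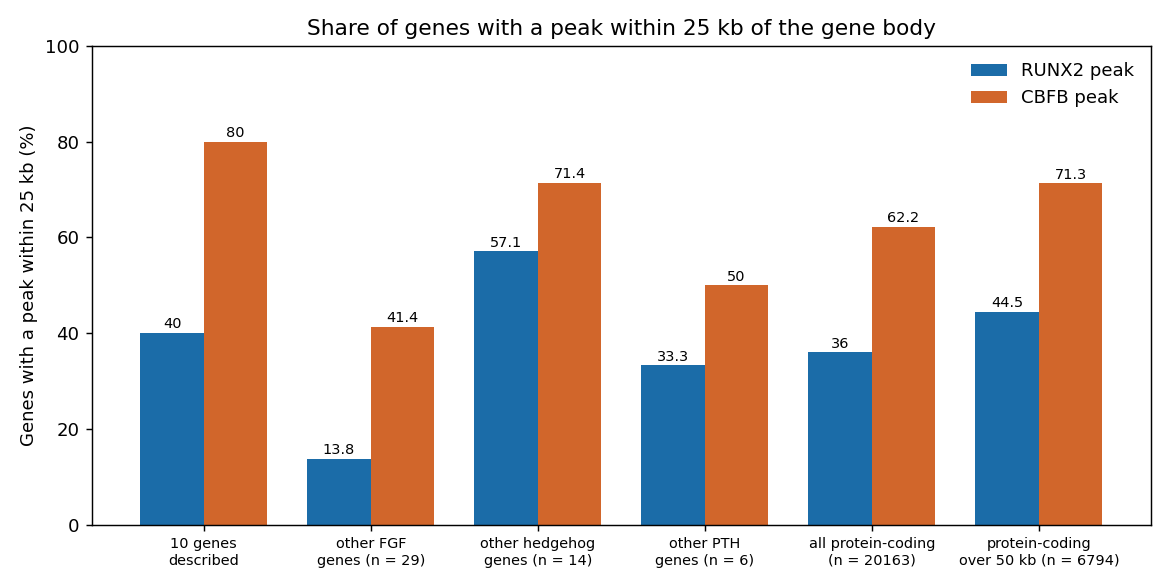
Bars give the percent of genes with a RUNX2 or CBFB peak within 25 kb of the gene body, for the 10 genes described, the other FGF, hedgehog and PTH genes, all protein-coding genes and those over 50 kb. There are no error bars because each bar is a count from a single library. The bars of the 10 genes are at 40% and 80%, and those of all protein-coding genes at 36.0% and 62.2%. Genes over 50 kb, which 5 of the 10 are, stand at 44.5% and 71.3%.

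Within the wider list, the 5 genes with the highest-scoring RUNX2 peak were GNAS, the G protein subunit that couples PTH1R to cyclic AMP (score 170.62, percentile 85.3), HHAT, which attaches palmitate to hedgehog ligands (167.13, percentile 84.7), KL, the co-receptor of FGF23 (152.55, percentile 82), the ligand FGF1 (143.45, percentile 79.9) and the PTH-family ligand PTH2 (139.97, percentile 78.8). The peak of GNAS lay 20.9 kb before the annotated 5′ end of the gene. HHAT had 5 RUNX2 and 8 CBFB peaks over 348 kb. The peaks of KL and PTH2 were closer to a start of STARD13 and of KASH5, respectively. For CBFB, the highest were GNAS (score 1164.21, percentile 98.5), KL (865.08, percentile 96.9), PTH2 (596.34, percentile 93.7), GLI1, a transcription factor and a target of hedgehog signalling (512.78, percentile 91.7), and PRKAR1A, a regulatory subunit of protein kinase A (416.28, percentile 88.6). At GLI1 a RUNX2 peak with a percentile of 52.6 lay inside the CBFB peak, 0.167 kb before the annotated 5′ end, whereas the CBFB peak in PRKAR1A overlapped no RUNX2 peak.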

How the data were processed

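The deposited data were 2 peak lists, for RUNX2 and for CBFB, each from 1 ChIP-seq library of SAOS2 cells, and groups were taken from the sample labels. The submitters' processing notes name CASAVA 1.8.2, MACS 1.4.1 and hg19. The aligner, the limit for calling a peak, and whether input served as control are not given in the sources used here. The score deposited by the authors for each peak was read as the MACS score, -10 times log10 of the p-value, from the peak names and the range of the values (50 to 3100 in both lists). The lists hold no counts, so read depth is unknown, and scores were compared only by rank within a list.

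Gene models came from GENCODE release 44, lifted to GRCh37, and all 49 symbols of the wider list matched. Peaks with under 25 kb between them and the gene body were assigned to the gene. Overlap required 1 bp. Motifs were searched in the GRCh37 sequence of 9928 RUNX2 and 27204 CBFB peaks on chromosomes 1 to 22, X and Y. Shares carry exact Clopper-Pearson and densities exact Poisson 95% intervals. Alternatives changed the reach, the score limit, the list length, the overlap rule, the motif window and the assignment to the nearest start. Leaving out GLI2 was chosen after seeing the data.

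The members and lists were chosen with earlier results of these data known. By the rule for named genes, the members were given with their peaks, then from the wider list the 5 genes with the highest-scoring RUNX2 peak and the 5 with the highest-scoring CBFB peak, and a stretch of sequence of the highest-ranked RUNX2 peak of each member. The other stretches, and the peaks nearest to genes without one, were chosen after their values were seen. The overlap, rank, distance and motif steps were tested on simulated data. Python 3.11.15 with numpy 2.4.6, scipy 1.17.1, pysam 0.24.0 and matplotlib 3.10.9 was used.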

Additional observations from a re-analysis of the deposited data

How the results depend on the processing

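Of 78 values recomputed under an alternative, 16 moved, that is, a count by over 1.5 times, a median percentile by over 10 points, or a share to outside the exact 95% interval of the reported share. These intervals are wide: the share of RUNX2 peaks with the RUNX core fell from 66.7% to 40% (2 of 5) with a score of 100 or more and was 46.7% within 50 bp, both inside its interval. With a score of 100 or more, 5 RUNX2 peaks were left at the 10 genes and none at FGFR2, PTHLH had no CBFB peak, the RUNX2 median percentile was 75.1, the share of CBFB peaks overlapping RUNX2 was 16.7%, and 6 genes of the wider list had a RUNX2 peak. The median score was 84.1 in the RUNX2 list and 121 in the CBFB list, so this limit kept a smaller part of the RUNX2 list. With the CBFB list cut to its 9941 top-scoring peaks, 22 CBFB peaks were left and again none at PTHLH, their median percentile was 77.1, 63.6% overlapped RUNX2 and 59.1% held the RUNX core. Without GLI2, 9 RUNX2 and 24 CBFB peaks were left. With midpoints required to lie within 200 bp, 73.3% of RUNX2 peaks had a CBFB peak. The RUNX core was in 93.3% of RUNX2 and 90.2% of CBFB peaks when the whole peak was searched, and in 17.1% of CBFB peaks within 50 bp. In the wider list 9 genes had a RUNX2 peak with a reach of 5 kb, and 9 by nearest start. These moves came under alternatives that kept fewer peaks or pairs, or searched other lengths of sequence, and their cause was not tested. The members with a CBFB peak were 7 at 5 kb, where FGFR3 was lost, and 9 at 50 kb, where FGF18 was gained.

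No paired analysis was possible because there was 1 library per antibody and no test was run. Without replicates or read counts, a missing peak says only that none was called at this depth. The copy number of these genes in SAOS2 cells, which can move a score, was not measured here. A peak within 25 kb of a gene is not evidence that it acts on that gene.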
